A study of Rattus norvegicus and Mus musculus with 61 samples.

Results

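S100a8, S100a9 and Lcn2 were followed in injured mouse and rat cortex through every probe set annotated to them on the arrays of the series. There were 7 such probe sets of 21287 in all, 4 of 12488 in mouse (103448_at for S100a8, 103887_at for S100a9, 160564_at and 161684_r_at for Lcn2) and 3 of 8799 in rat (rc_AA957003_at for S100a8, L18948_at for S100a9, rc_AA946503_at for Lcn2). The 3 genes were chosen by their higher level after injury in these same arrays. Their injury against sham values are therefore given as a description, with no test, and they support nothing by themselves.

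The mouse groups were male C57BL/6 animals of 20 to 25 g under isoflurane, and each array held 4 mm disks of parieto-occipital cortex pooled from 3 mice. Injury was a controlled cortical impact at 6 m/s with 1.5 mm of deformation, in which a piston strikes the exposed brain surface. There were 3 injury and 2 sham arrays at each of 4, 8, 24 and 72 h, and 2 naive arrays. The rat groups were male Sprague-Dawley animals of 400 ± 25 g under sodium pentobarbital, and each array held a 7 mm disk from 1 rat. Injury was a fluid percussion pulse of 2.5 atm, a pressure wave delivered onto the dura. There were 5 injury and 4 sham arrays at 30 min, 3 and 4 at 4 h, 3 and 2 at each of 8, 24 and 72 h and 21 d, and 3 naive arrays. Sham animals had the anaesthesia and the surgery without the injury, and naive animals had neither. Because a mouse array is a pool, its spread is between pools and not between mice. The mouse sham arrays of one time are told apart in their titles by a letter alone, and they are called 1b, 1c and 1d here. Whether they came from separate animals is not said in the labels, so p-values measure the spread between arrays.

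S100A8 and S100A9 are small calcium-binding proteins that pair as calprotectin. Calprotectin is stored in large amount in neutrophils and in young monocytes, binds zinc and manganese away from microbes, and when released acts as an alarm signal through the receptors TLR4 and RAGE. Lipocalin 2 is a secreted protein that binds bacterial siderophores and so withholds iron. It was first purified from neutrophil granules, and in the injured brain it is known as a product of reactive astrocytes as well. All 3 genes are known targets of inflammatory signalling through NF-kB, C/EBP factors and STAT3.

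S100a8 and S100a9 lie 22.7 kb apart on rat chromosome 2 (chr2:178464095-178465223 and chr2:178487941-178490622, RefSeq GRCr8), and Lcn2 lies on chromosome 3 (chr3:36078432-36081851). The 250 bases before the start sites of rat S100a9 and Lcn2 are shown from RefSeq GRCr8 because these members were both high after injury in rat and had their largest differences from sham at different times. For rat Lcn2 the 8 and 24 h differences were close, at 4.12 ± 0.54 and 4.21 ± 0.54 (log2, SE). S100a8 has no entry in the promoter table. The S100a9 window is chr2:178490623-178490872 and the Lcn2 window chr3:36081781-36082030, both read from the minus strand. The start site of the table lies inside the Lcn2 gene record, not at its edge. Capitals mark matches to 5 short motifs searched on both strands.
S100a9: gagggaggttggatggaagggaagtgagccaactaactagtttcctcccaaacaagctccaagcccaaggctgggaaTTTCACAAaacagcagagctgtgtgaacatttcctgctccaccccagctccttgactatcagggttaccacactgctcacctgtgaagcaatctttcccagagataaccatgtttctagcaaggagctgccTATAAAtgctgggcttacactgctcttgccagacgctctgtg
Lcn2: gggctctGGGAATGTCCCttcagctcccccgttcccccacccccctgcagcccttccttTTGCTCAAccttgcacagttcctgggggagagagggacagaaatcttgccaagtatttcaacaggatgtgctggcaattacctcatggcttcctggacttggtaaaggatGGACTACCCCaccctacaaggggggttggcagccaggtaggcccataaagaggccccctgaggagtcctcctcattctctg
The letters searched were GGGNNNNNCC for NF-kB, TTNNGNAA for C/EBP, TTCNNNGAA for STAT factors and TATAAA for the TATA box, with TGANTCA for AP-1. In S100a9, TTTCACAA at -173 to -166 matched the C/EBP letters and TATAAA stood at -42 to -37. In Lcn2, the run from -243 to -233 matched the NF-kB letters once on each strand with overlap, GGACTACCCC at -81 to -72 matched them on the minus strand, and TTGCTCAA at -191 to -184 matched the C/EBP letters. Neither window held the STAT or AP-1 letters. Of 27457 rat promoter windows of 250 bases, 43.52% held the NF-kB letters, 36.79% C/EBP, 7.524% STAT, 6.363% AP-1 and 13.09% TATA. A match is a description of letters and not of a binding site.

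Values are deposited intensities on a linear scale, and log2 values were taken after raising those under a floor of 24.1 in mouse and 32.3 in rat to that floor. Median intensities per array were 285 to 340 in mouse and 230.3 to 409 in rat. In rat, 4 arrays stood apart by their median correlation with the others: sham 4 h replicates 4 (0.608) and 3 (0.731), injury 30 min replicate 5 (0.798) and sham 30 min replicate 3 (0.829). Member values, correlations and list counts that change without them are also given without them. All rat arrays of 24 h, injury and sham, had median correlations of 0.864 to 0.876. Their titles alone carry an extra letter f, whose meaning the labels do not give. In mouse, the 2 sham arrays of 4 h carried pituitary genes (Prl, Pomc, Cga and Lhb): the summed intensity of the list was 18500 to 20730, against at most 2650 in every other mouse array. Their part in the 4 h results was not tested. Of the cortical cell markers, 8 neuron genes passed the intensity filter in each species, with 4 oligodendrocyte genes in mouse and 5 in rat.

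In mouse cortex S100a8 was high from the earliest time sampled and had come down by 72 h. The injury arrays 1, 2 and 3 read 1242, 406 and 733 at 4 h, 906, 964 and 613 at 8 h, 819, 749 and 755 at 24 h, and 294, 222 and 256 at 72 h. The sham arrays read 184 and 191 at 4 h, 35.6 and 77.3 at 8 h, 79.5 and 102 at 24 h, and 114 and 95.7 at 72 h, and the naive arrays 96.4 and 101. Every injury array was thus above every sham array of its time, and the 4 h shams were the highest uninjured arrays. Injury minus sham from the limma fit was 1.94 ± 0.37 (log2, SE) at 4 h, 3.95 ± 0.37 at 8 h, 3.10 ± 0.37 at 24 h and 1.29 ± 0.37 at 72 h, or 3.83, 15.5, 8.58 and 2.45-fold. Mean intensities of the injury groups at 4, 8 and 24 h were 794, 827 and 774 and differed by less than the SD of the 4 h arrays (421) or of the 8 h arrays (188). The 72 h mean was 257, and all its arrays were below the 9 arrays of the earlier times. The large fold at 8 h came with the lowest sham group. With all uninjured mouse arrays as 1 control group the differences for S100a8 were 2.87 at 4 h and 3.05 at 8 h. Fewer cells that carry these transcripts and less RNA per cell cannot be told apart in tissue disks.

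S100a9, the binding partner of S100a8, was also high from 4 to 24 h and low by 72 h. Its injury arrays read 1011, 141 and 424 at 4 h, 716, 665 and 522 at 8 h, 439.6, 266 and 270.4 at 24 h, and 121, 29.8 and 108 at 72 h. Shams read 82.6 and 44.6 at 4 h, 11.6 and 9.27 at 8 h, 43.6 and 19.5 at 24 h, and 21.1 and 27.1 at 72 h, with naive arrays at 35.2 and 17.4. Injury arrays again lay above all shams of their time, but by 72 h array 2 cleared the higher sham by very little. Injury minus sham was 2.69 ± 0.67 at 4 h, at least 4.70 ± 0.67 at 8 h where both shams sat at the floor, 3.28 ± 0.67 at 24 h and 1.51 ± 0.67 at 72 h (log2, SE). In fold terms these were 6.46, at least 26.0, 9.74 and 2.85. The 72 h value was 0.35 with a floor at the 25th percentile and 2.16 without injury array 2. The 4 h arrays spread widest, with replicate 1 highest and replicate 2 lowest for S100a8, S100a9 and the 160564_at probe set of Lcn2 alike.

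Lcn2 on 160564_at was high from 4 to 72 h, with its largest difference from sham at 24 h. The injury arrays read 953, 314 and 431 at 4 h, 794, 1214 and 726 at 8 h, 1166, 1036 and 603 at 24 h, and 586, 293 and 440.2 at 72 h. The shams read 90.2 and 135 at 4 h, 58.0 and 61.9 at 8 h, 19.0 and 29.9 at 24 h, and 49.6 and 69.5 at 72 h, and the naive arrays 13 and 68.6. No injury array overlapped a sham of its time. Injury minus sham was 2.19 ± 0.47 at 4 h, 3.89 ± 0.47 at 8 h, 5.06 ± 0.47 at 24 h and 2.85 ± 0.47 at 72 h (log2, SE), or 4.57, 14.8, 33.5 and 7.20-fold. The injury means at 8 and 24 h (911 and 935) did not differ beyond their SDs of 264 and 295. The sham arrays of 24 h were the lowest of the sham groups, and 1 of them was at the floor. At 4 h the difference was 3.25 against all uninjured arrays.

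The other Lcn2 probe set on the mouse array, 161684_r_at, did not follow this course. The suffix marks a probe set that did not meet all of the manufacturer's selection rules. It read 296 to 593 over all 22 arrays, with injury minus sham of -0.34 ± 0.23, -0.01 ± 0.23, 0.23 ± 0.23 and -0.53 ± 0.23 at 4, 8, 24 and 72 h (log2, SE). Its injury and sham arrays overlapped at 8 and 24 h, and at 4 and 72 h the injury arrays were the lower ones. A rule that keeps the probe set of highest mean for each gene would have kept this one for mouse Lcn2. With both probe sets averaged, the difference at 24 h was 2.65 in place of 5.06. Lcn2 in mouse refers to 160564_at from here on.

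**Figure D1:**
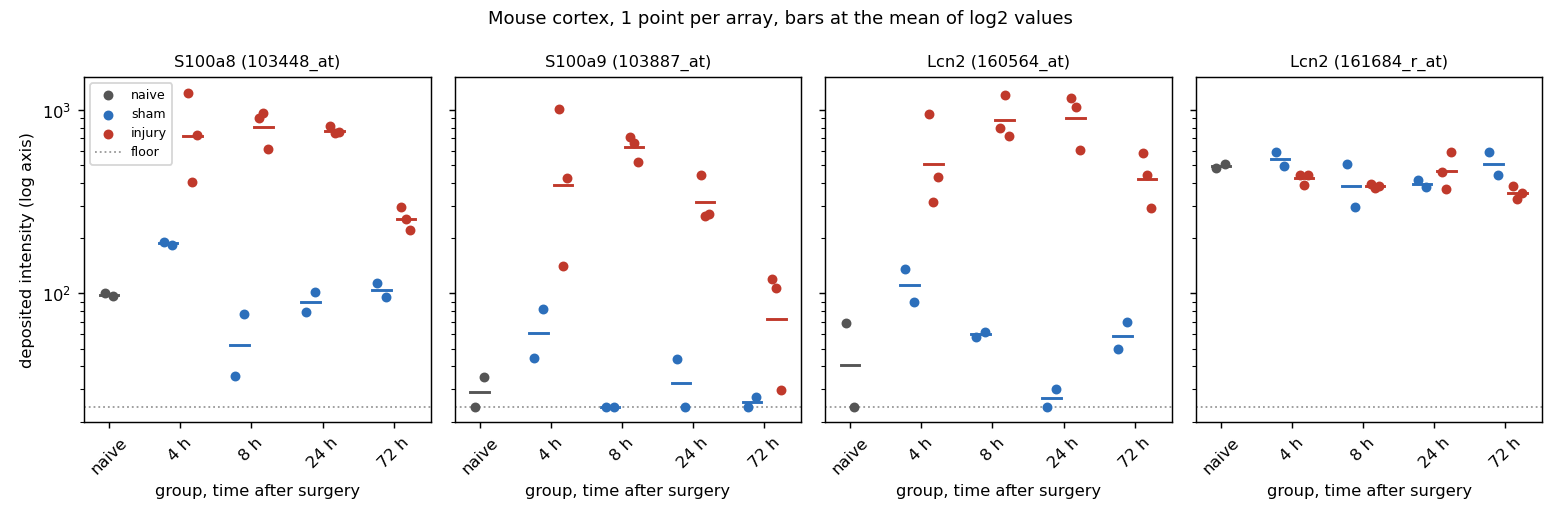
Deposited intensity (log axis) of each mouse array for S100a8, S100a9 and both Lcn2 probe sets, by group and time after surgery; bars are means of log2 values and the dotted line is the floor of 24.1, at which lower values are drawn. Red injury points lie above the blue sham points at every time in the first 3 panels, and in the panel of 161684_r_at all groups lie between 296 and 593.

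In rat cortex S100a8 was near the floor in most uninjured arrays and in most injury arrays at 30 min. Its 30 min injury arrays read 41.6, 303, 26.0, 10.7 and 8.03, so replicate 2 alone was high. The later injury arrays 1, 2 and 3 read 265, 943 and 483 at 4 h, 3292, 876 and 1084 at 8 h, 482, 189 and 1418 at 24 h, 92.8, 54.4 and 492 at 72 h, and 29.4, 91.5 and 9.06 at 21 d. The shams read 56.5, 45.6, 6.29 and 9.56 at 30 min, 29.8, 90.1, 79.3 and 55.7 at 4 h, 50.9 and 51.7 at 8 h, 6.69 and 14.3 at 24 h, 64.8 and 29.8 at 72 h, and 26.9 and 5.0 at 21 d. Naive arrays read 35.3, 49.1 and 38.5. The groups were apart at 4, 8 and 24 h and overlapped at 30 min, 72 h and 21 d. Injury minus sham was 0.39 ± 0.64, 3.04 ± 0.73, 4.83 ± 0.87, at least 3.97 ± 0.87 and 1.57 ± 0.87 (log2, SE) at 30 min and 4, 8, 24 and 72 h, and at 21 d, where both shams and 2 of 3 injury arrays were at the floor, no fold is given. Without the 4 arrays that stand apart S100a8 was 0.46 at 30 min and 3.20 at 4 h. Without injury array 2 the 30 min value was -0.23, and without injury array 3 the 72 h value was 0.64.

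S100a9 in rat varied widely among uninjured arrays. At 30 min the injury arrays read 121, 371, 59.3, 83.3 and 161 and the shams 64.7, 57.7, 200.4 and 54.8. Later injury arrays read 699, 1057 and 379.9 at 4 h, 3016, 1529.5 and 2059 at 8 h, 683, 405 and 915 at 24 h, 95.0, 271 and 424 at 72 h, and 73.7, 68.8 and 76.0 at 21 d. Shams read 52.7, 158, 248 and 268 at 4 h, 147 and 79.3 at 8 h, 72.1 and 159 at 24 h, 25.6 and 124 at 72 h, and 50.4 and 31.2 at 21 d, and naive arrays 26.8, 86.5 and 14.5. The 2 highest shams, at 4 h, were replicates 3 and 4, which are among the arrays that stand apart. Injury and sham arrays were apart at 4, 8 and 24 h and, by a small margin, at 21 d. Injury minus sham was 0.69 ± 0.55, 2.09 ± 0.63, 4.29 ± 0.75, 2.56 ± 0.75, 1.81 ± 0.75 and 0.85 ± 0.75 (log2, SE) from 30 min to 21 d. Without the 4 arrays that stand apart S100a9 was 1.05 at 30 min and 2.84 at 4 h. The 72 h value was 0.84 without sham array 1 and 2.78 without sham array 2, and the 21 d value was -0.15 against all uninjured arrays.

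Lcn2 in rat was high at 8 and 24 h and still apart from sham at 72 h. The 30 min injury arrays read 28.9, 70.4, 74.6, 41.6 and 64.7, within the range of the shams at 32.7, 75.5, 52.3 and 20.5. Later injury arrays read 449, 439 and 170.0 at 4 h, 1885, 1219 and 1867 at 8 h, 2633, 1282 and 2738 at 24 h, 651, 449 and 653 at 72 h, and 22.7, 44.0 and 60.8 at 21 d. Shams read 103, 107, 61.5 and 142 at 4 h, 91.1 and 95.8 at 8 h, 125 and 103 at 24 h, 41.5 and 101 at 72 h, and 46.3 and 32.9 at 21 d, and naive arrays 92.9, 35.7 and 17. Injury arrays cleared all shams from 4 to 72 h, most narrowly at 4 h, and the groups overlapped at 30 min and 21 d. Injury minus sham was 0.26 ± 0.40, 1.70 ± 0.45, 4.12 ± 0.54, 4.21 ± 0.54, 3.15 ± 0.54 and 0.18 ± 0.54 (log2, SE), or 1.19, 3.25, 17.4, 18.5, 8.91 and 1.13-fold. Without the 4 arrays that stand apart Lcn2 was 0.26 at 30 min and 1.62 at 4 h. The 8 h and 24 h injury means (1657 and 2218) differed by less than the 24 h SD of 812.

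**Figure D2:**
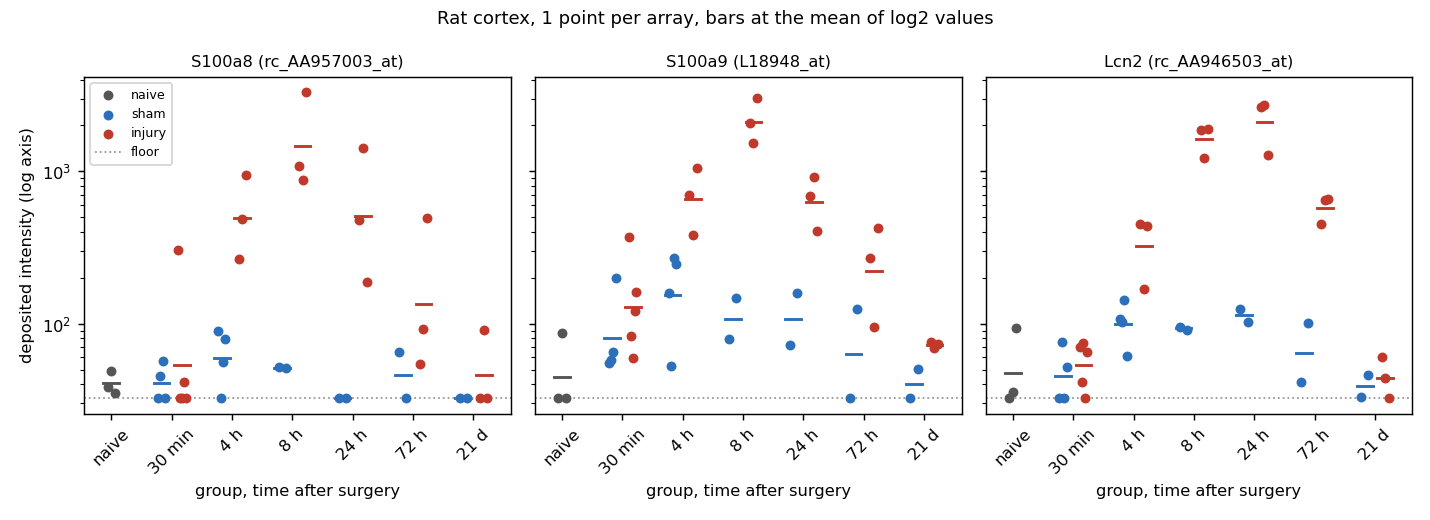
Deposited intensity (log axis) of each rat array for S100a8, S100a9 and Lcn2, by group and time after surgery; bars are means of log2 values and the dotted line is the floor of 32.3, at which lower values are drawn. The highest injury points of S100a8 and S100a9 are at 8 h and those of Lcn2 at 24 h, and at 21 d all 3 genes are back near the sham level. The 8 and 24 h injury points overlap for S100a8 and Lcn2.

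These counts of separated groups have to be read beside the rest of the array, since groups of 3 and 2 arrays separate often. In mouse, all 3 genes had every injury array above every sham array at each of the 4 times. The same held for 18% of all 6353 tested rows at 4 h, 17.8% at 8 h, 17% at 24 h and 20.6% at 72 h. In rat, 0 of 3 genes were separated at 30 min, 3 at each of 4, 8 and 24 h, 1 at 72 h (Lcn2) and 1 at 21 d (S100a9), against 0.367%, 5.48%, 19.5%, 16.4%, 19% and 9.81% of 4089 rows. Without the 4 rat arrays that stand apart the member counts were the same. With a floor at the 25th percentile S100a9 was no longer separated at 21 d. Because the rule used these contrasts, nothing is read from the counts.

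S100a8 and S100a9 had their largest injury minus sham value at 8 h in both species, and Lcn2 at 24 h in both. In rat the 8 and 24 h values of Lcn2 were less than 1 SE apart. In mouse, mean log2 values of Lcn2 at 8 and 24 h were 9.79 and 9.81 in injury and 5.90 and 4.75 in sham. Those of mouse S100a8 were 9.66 and 9.60 in injury and 5.71 and 6.49 in sham. For mouse S100a9 they were 9.30 and 8.30 in injury and 4.59 and 5.02 in sham. The mouse times of largest difference for Lcn2 and S100a8 thus rest on the sham groups of 2 arrays. Within single arrays, the log2 difference between the Lcn2 and S100a9 signals compares different probes and has no meaning as a level, but its change over time can be followed. In mouse injury arrays it ran from 0.15 to 0.87 at 8 h, from 1.16 to 1.96 at 24 h and from 2.03 to 3.30 at 72 h. In rat it ran from -0.68 to -0.14 at 8 h, from 1.58 to 1.95 at 24 h and from 0.62 to 2.78 at 72 h. The 24 and 72 h arrays were above all 8 h arrays in both species, with a mean gain from 8 to 24 h of 1.01 in mouse and 2.11 in rat. Between the rat shams of 8 and 24 h limma called 3.86% of all rows. Time after injury and array set cannot be told apart in rat changes from 8 to 24 h. Lcn2 against S100a8 gained 1.90 from 8 to 24 h in rat, with no overlap, and 0.09 in mouse, with overlap. S100a9 against S100a8 changed by -0.92 on the log2 scale in mouse, with no overlap, and by -0.21 in rat, with overlap. The genes were picked with their courses known, and 3 against 3 arrays cannot give an exact permutation p under 0.1, so these are descriptions.

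**Figure D3:**
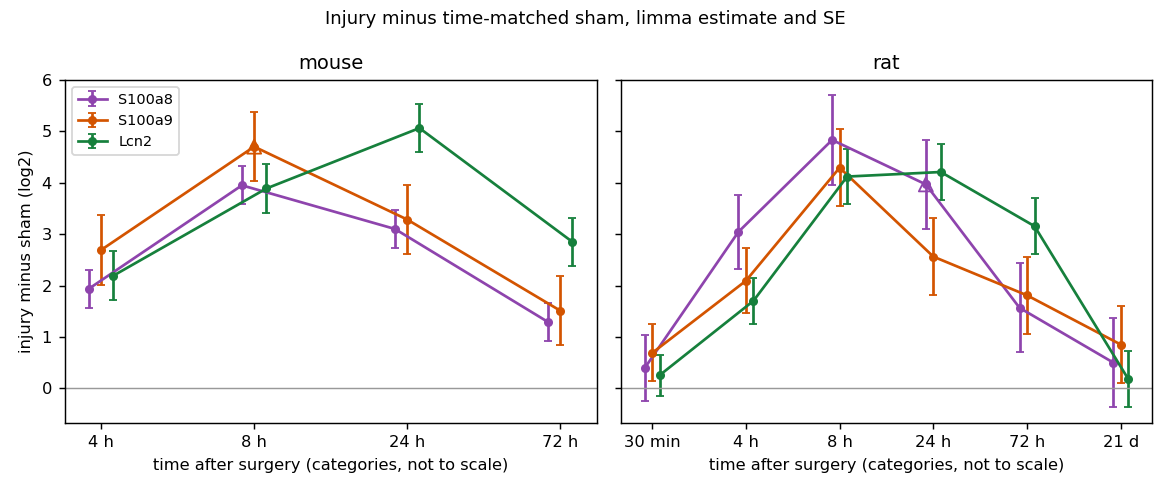
Injury minus time-matched sham on the log2 scale (limma estimate, bars are SE) for S100a8, S100a9 and Lcn2 (160564_at in mouse) against time after surgery, drawn as categories; open triangles mark values that are lower bounds because both shams sat at the floor. S100a8 and S100a9 are highest at 8 h and Lcn2 at 24 h in both species. In mouse the injury levels of S100a8 and of Lcn2 were alike at 8 and 24 h, and the sham levels differed.

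Sham against naive asks whether anaesthesia and surgery alone moved these genes. The choice of the genes did not use this comparison, but it used the same sham arrays, so the 2 are not independent. No member was called at any time in limma at an adjusted p below 0.05. Over all sham times together, sham minus naive in mouse was -0.01 ± 0.32 for S100a8 (limma adjusted p = 0.998), 0.19 ± 0.58 for S100a9 (0.956) and 0.48 ± 0.41 for Lcn2 (0.734). The other Lcn2 probe set gave -0.12 ± 0.20 (limma adjusted p = 0.884). In rat it was 0.07 ± 0.60 for S100a8 (limma adjusted p = 0.991), 0.91 ± 0.52 for S100a9 (0.893) and 0.56 ± 0.38 for Lcn2 (0.893). Without the 4 rat arrays that stand apart S100a9 was 0.71 ± 0.49 (limma adjusted p = 0.809). At an unadjusted p under 0.05 there were 0 member probe sets in these 2 comparisons. The rows called by limma over the whole arrays came to 0.11% in mouse and 0.0245% in rat. At an unadjusted p under 0.05 in limma there were 650 of 6353 and 218 of 4089 rows. With 8 sham and 2 naive arrays in mouse and 16 and 3 in rat, the standard errors are too wide to show that surgery left the genes alone.

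By single time, sham minus naive in mouse at 4 h was 1.44 ± 0.52 for Lcn2 (limma adjusted p = 0.354), 0.93 ± 0.40 for S100a8 (0.484) and 1.06 ± 0.74 for S100a9 (0.757). Of 4 probe sets, 2 had an unadjusted p under 0.05 at 4 h, 1 at 8 h (S100a8, -0.91 ± 0.40), and 0 at 24 and 72 h. The 4 h shams are the arrays that carried pituitary transcripts, and the part of that in the 4 h values was not tested. In rat at 4 h S100a9 was 1.77 ± 0.63 (limma adjusted p = 0.0952) and Lcn2 1.06 ± 0.45 (0.145), 2 of 3 probe sets at an unadjusted p under 0.05. The S100a9 value rested on sham 4 h replicates 3 and 4, which stand apart: without the 4 such arrays it was 1.03 ± 0.69 (limma adjusted p = 0.956), and Lcn2 was 1.14 ± 0.53 (0.930). At 24 h rat Lcn2 was 1.26 ± 0.54 above naive (limma adjusted p = 0.169), the only one of 3 at an unadjusted p under 0.05, and at 30 min, 8 h, 72 h and 21 d there were 0. Over the whole array limma called 0.551%, 0%, 0.0472% and 0.0157% of rows in mouse from 4 to 72 h. At an unadjusted p under 0.05 there were 561, 764, 562 and 469 of 6353 rows. In rat limma called 0.0245%, 0%, 0%, 5.5%, 0% and 0% from 30 min to 21 d. At an unadjusted p under 0.05 there were 336, 1056, 173, 862, 220 and 80 of 4089 rows.

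Injury arrays of 1 time differed widely, and in mouse the 3 genes differed together. Each injury array was set against the mean of its own group, which removes the time course that the choice of genes used. The p beside each rho is from ranks of these deviations centred again within groups, a step the printed rho leaves out. In mouse, over 12 arrays in 4 groups, the deviations of S100a8 and S100a9 had r = 0.861 and rho = 0.839 (exact within-group permutation, two-sided p = 0.00231 and 0.00386, adjusted over 6 pairs 0.0139 and 0.0208). S100a8 with Lcn2 had r = 0.822 and rho = 0.839 (exact permutation p = 0.0147 and 0.00694, adjusted 0.0220 and 0.0208), and S100a9 with Lcn2 r = 0.836 and rho = 0.790 (exact permutation p = 0.0131 and 0.0224, adjusted 0.0220 and 0.0448). For S100a8 the 2 arrays farthest from the median were injury 4 h replicates 1 and 2, and without them r was 0.624 with S100a9 and 0.642 with Lcn2. For S100a9 they were injury 4 h replicate 2 and injury 72 h replicate 2, and without them r with Lcn2 was 0.771. These values without 2 arrays keep the group means of all arrays, while those without 1 array use new group means. Without injury 72 h replicate 2 the relation of S100a9 with Lcn2 had r = 0.815 and an exact permutation p of 0.0556. Each point is 1 array, so both of its values share the RNA and the scaling of that array. Over 7626 mouse probe sets, an r as high was seen in 0.0787% for S100a8 with S100a9, 0.184% for S100a8 with Lcn2 and 0.262% for S100a9 with Lcn2.

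In rat, over 20 injury arrays in 6 groups, S100a8 and S100a9 deviated together with r = 0.704 (within-group permutation p = 0.00775, adjusted 0.0220) and rho = 0.539 (p = 0.0519, adjusted 0.0730). The relation leaned on injury 30 min replicate 2, the array in which both genes were high: without it r was 0.555 (permutation p = 0.0804). Without the 2 farthest arrays, with the group means of all arrays kept, r was 0.482. S100a8 was at the floor in 3 of 5 injury arrays at 30 min and in 2 of 3 at 21 d. Those arrays are tied for S100a8 within their group, also in its relation with Lcn2. Lcn2 did not pass with either partner: r was 0.386 and rho 0.164 with S100a8 (permutation adjusted p = 0.137 and 0.534), and r was 0.401 and rho 0.466 with S100a9 (permutation adjusted p = 0.137 and 0.0730). Without injury 30 min replicate 3, S100a9 with Lcn2 had r = 0.583 (permutation p = 0.0221). Without the 4 arrays that stand apart r was 0.740 for S100a8 with S100a9 (permutation p = 0.00710), 0.421 for S100a8 with Lcn2 (0.120) and 0.390 for S100a9 with Lcn2 (0.170). Over 5825 rat probe sets, an r as high as in all 20 arrays was seen in 0.103%, 5.94% and 12.9% for these pairs.

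**Figure D4:**
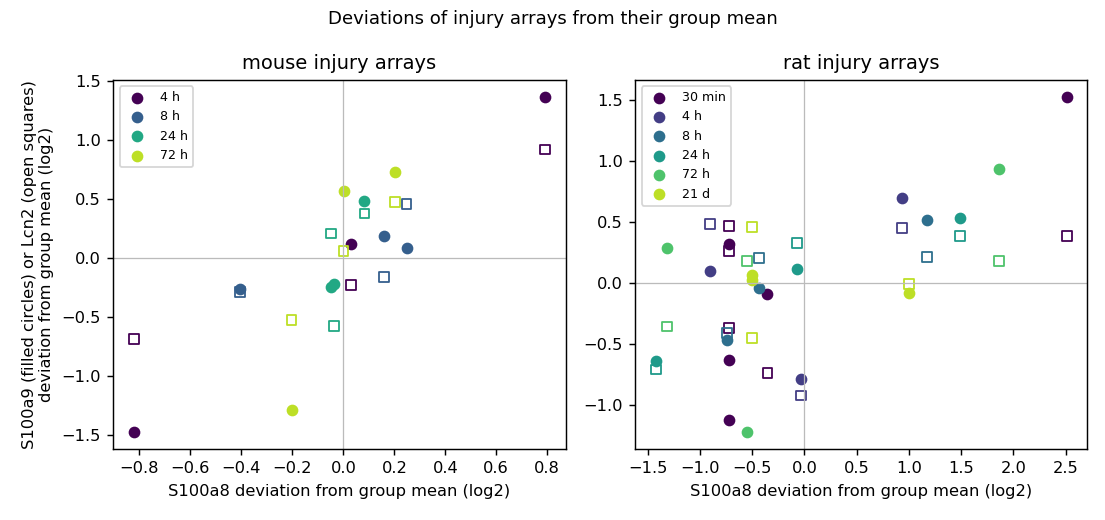
Deviation of each injury array from its group mean on the log2 scale, S100a8 on the x axis and S100a9 (filled circles) or Lcn2 (open squares) on the y axis, coloured by time after surgery. In mouse the points run from lower left to upper right for both partners (r = 0.861 and 0.822), and in rat they do so for S100a9 (r = 0.704) more than for Lcn2 (r = 0.386).

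Lists of genes around the 3 members were tested in the same limma fits, and they were drawn up with earlier results of these data known. Of 100 list genes measured in mouse, 17 rose and 4 fell at 4 h, 38 rose and 0 fell at 8 h, 37 rose and 0 fell at 24 h, and 42 rose and 2 fell at 72 h. Over the whole mouse array 0.881%, 8.2%, 10.7% and 15.6% of rows were called. The 4 falls at 4 h were all pituitary genes (Prl, Cga, Pomc, Lhb), high in the 4 h shams. Of the 5 pituitary genes measured, the remaining 1 was called as higher in injury at 4 h. Leaving out sham 4 h array 1c brought the 4 h calls from 21 to 8, sham 1b to 13 and injury 1 to 12. Without sham 24 h array 1d the 24 h calls were 23, and without sham 8 h array 1b the 8 h calls were 25. Markers of other cells moved in the same arrays. The sum of 4 red blood cell genes was 14905 to 16761 in injury and 8884 to 9297 in sham arrays at 4 h, and 17101 to 22597 and 10503 to 11181 at 8 h, with 2 of 4 genes called as higher at each of these times. Of 4 oligodendrocyte genes, 2 rose at each of 8, 24 and 72 h, with Mag, a myelin protein gene, at 1.02 ± 0.21 at 8 h (limma adjusted p = 0.00420, and 0.189 without sham 8 h array 1b). The part of these markers in the results was not tested.

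Of 19 measured inducers and transcription regulators in mouse, 7 rose at 4 h, 16 at 8 h, 11 at 24 h and 8 at 72 h, with none falling. The list median was 1.46 at 8 h, against -0.03 over all rows. Cebpd, a C/EBP factor of the acute phase, rose by 3.19 ± 0.18 at 8 h (limma adjusted p = 1.24e-09), and Osmr, a receptor subunit for oncostatin M, by 2.89 ± 0.25 at 24 h (4.05e-07). Socs3, a feedback inhibitor of STAT3 signalling, rose by 2.92 ± 0.31 at 24 h and Nfkbia, the inhibitor that NF-kB itself induces, by 1.29 ± 0.13 at 8 h (limma adjusted p = 3.63e-06 and 2.72e-06). Of 7 recruitment genes, 5 rose at 8 h, among them the chemokines Ccl2 (5.63 ± 0.38), Ccl3 (4.73 ± 0.34) and the neutrophil attractant Cxcl1 (5.96 ± 0.58, limma adjusted p = 1.52e-06). The related Cxcl2 rose by 2.96 ± 0.57, with a limma adjusted p of 0.056 without sham 8 h array 1c.

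Of 7 receptors and adaptors of S100A8 and S100A9 measured in mouse, 1 rose at 4 h, 1 at 8 h, 2 at 24 h and 1 at 72 h. With 7 genes these counts are too few to set apart from the shares of the whole array. Cd14, the co-receptor that hands ligands to TLR4, was the one called at every time, at 1.62 ± 0.24, 2.72 ± 0.24, 1.98 ± 0.24 and 0.86 ± 0.24 from 4 to 72 h (limma adjusted p = 0.00106, 5.22e-07, 1.56e-05 and 0.0190). Its 4 h call was lost without sham 4 h array 1c (0.0508), and its 72 h call without injury 72 h array 1 (0.0574), injury 72 h array 3 (0.0721) or sham 72 h array 1c (0.107). Myd88, the adaptor below TLR4, rose at 24 h by 2.17 ± 0.59 (limma adjusted p = 0.0218). That call was lost without sham 24 h array 1d (0.535), injury 24 h array 3 (0.0737) or injury 24 h array 1 (0.0691). Ager, the gene of RAGE, and Bsg, the gene of basigin, were not called: at 8 h they stood at -1.15 ± 0.58 and -0.08 ± 0.16 (limma adjusted p = 0.257 and 0.856).

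Genes of lipocalin 2 reception and iron handling held 8 measured members in mouse, of which limma called 0 at 4 h (3 at an unadjusted p under 0.05), and 3 rose at 8 h, 2 at 24 h and 3 at 72 h. Hmox1, which degrades haem and frees its iron, rose by 2.81 ± 0.21 at 72 h (limma adjusted p = 1.67e-08). Cp, the ferroxidase ceruloplasmin, rose by 2.21 ± 0.30 at 24 h (5.13e-05), and Slc11a1, a metal transporter of phagocytes, by 1.61 ± 0.32 at 72 h (limma adjusted p = 0.00170). Acute phase and reactive astrocyte genes rose in 1, 5, 7 and 7 of 12 from 4 to 72 h. Ptx3, a secreted pattern recognition protein, rose by 5.94 ± 0.45 at 24 h and Serpina3n, a protease inhibitor of reactive astrocytes, by 3.69 ± 0.25 at 72 h (limma adjusted p = 6.62e-08 and 4.99e-09).

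The other S100 genes were called mostly at 24 and 72 h in mouse. Of 8 measured, limma called 0 at 4 h (0 at an unadjusted p under 0.05), and 2 rose at 8 h, 4 at 24 h and 5 at 72 h, with 1 fall at 72 h. S100a6 rose by 3.10 ± 0.25 and S100a4 by 2.48 ± 0.45 at 72 h (limma adjusted p = 5.55e-08 and 0.000692), and S100a10, the partner of annexin A2, by 1.79 ± 0.18 at 24 h (1.76e-06). S100a13 rose by 0.93 ± 0.22 at 72 h (limma adjusted p = 0.00741, and 0.149 without sham 72 h array 1c). Whether their courses differ from those of the members was not tested.

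**Figure D5:**
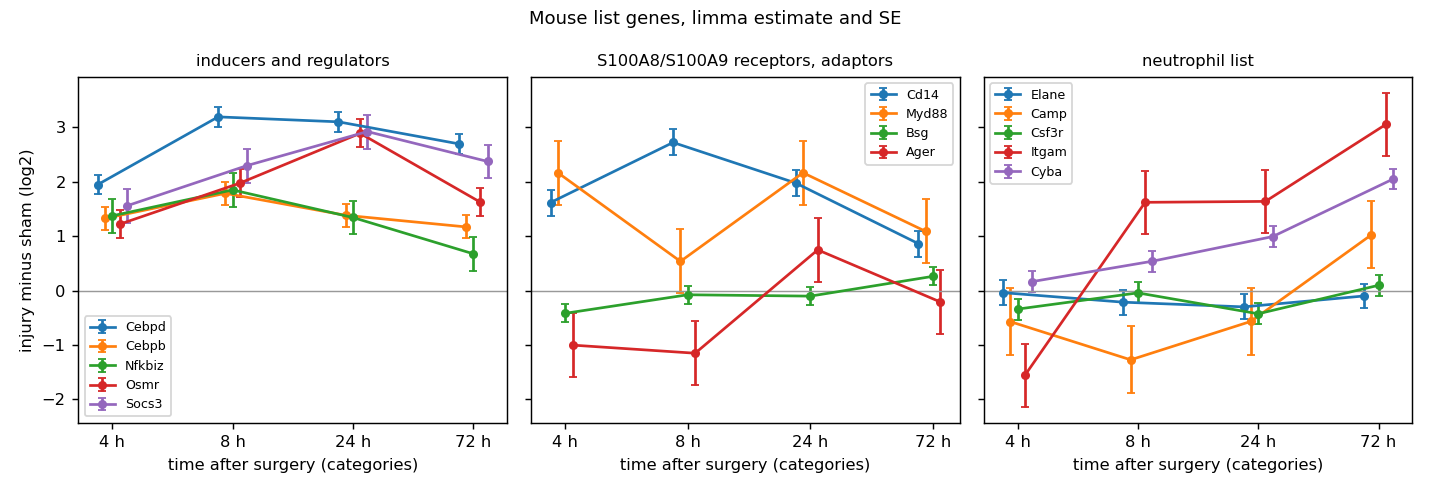
Injury minus sham on the log2 scale (limma estimate, bars are SE) for mouse genes of 3 lists against time after surgery, drawn as categories. Cebpd and Cd14 are above 0 at every time, Elane and Csf3r stay near 0, and Itgam and Cyba are highest at 72 h.

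Neutrophil granule and surface genes are the markers of a cell type known for these 3 transcripts. In mouse 23 of 30 were on the array and 9 passed the filter. Of those 9, limma called 0 at 4 h and 0 at 8 h, 1 rose at 24 h (Cyba, a subunit of the phagocyte oxidase) and 5 rose at 72 h. At an unadjusted p under 0.05 there was 1 at 4 h (Itgam, -1.56 ± 0.58) and 5 at 8 h: Ncf1 (2.13 ± 0.66), Itgam (1.62 ± 0.58), Il1r2 (1.23 ± 0.41), Cyba (0.54 ± 0.19) and Selplg (-0.42 ± 0.15). The summed intensity of the 23 genes was 4699 to 5702 in injury arrays at 4 h, 5055 to 5513 at 8 h, 5459 to 6102 at 24 h and 9037 to 10214 at 72 h. It was 5677 to 6345 in the 4 h shams, which carried pituitary genes, and 4948 to 5531 in all other uninjured arrays. The injury sums at 8 h lay within that last range, and those at 4 h ran from below it to above it. The sum is weighted to the brightest genes. In uninjured arrays Csf3r read 1148.5 to 2193 and Selplg 1098 to 1462, against 33.1 to 158 for Ncf1. A rise in dim genes moves the sum little, so a flat sum does not show that the list was unchanged.

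Of the granule genes, Mpo, Ltf and Ngp did not pass the intensity filter. Mpo, the myeloperoxidase gene, read 66.3 to 171 in injury and 64.7 to 159.9 in uninjured mouse arrays. Ltf, for lactoferrin, read 24.3 to 175 and 34.3 to 154, and Ngp 30.3 to 74.0 and 35.5 to 89.6. Elane, for neutrophil elastase, read 240.3 to 442 in injury and 361 to 519 in uninjured arrays, and Camp, for cathelicidin, 42.2 to 446 and 78.3 to 478. Elane stood at -0.04 ± 0.23 at 4 h and -0.21 ± 0.23 at 8 h (limma adjusted p = 0.982 and 0.664), and Camp at -1.27 ± 0.62 at 8 h (0.233). Over the whole list, 13 of 23 genes had a highest injury reading (12 arrays) above the highest uninjured one (10 arrays). With more injury than uninjured arrays, an unchanged gene would also peak in an injury array more often than not. The share over all probe sets was not computed, so nothing is read from the count. Among genes below the filter the highest readings were 210 in injury against 56.1 in uninjured arrays for Ncf4, 223 against 133 for Cxcr2, 179 against 95.7 for Clec4e and 120 against 71.5 for Fpr2. For other genes below the filter, Ngp among them, the uninjured reading was the higher one. No gene of the list was at an intensity of 0. Granule genes are known to be transcribed mainly in the bone marrow, before neutrophils enter blood.

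Genes of mature neutrophils that other leukocytes share were called mainly at 72 h. At 72 h in mouse Itgam rose by 3.05 ± 0.58, Cyba by 2.05 ± 0.19 and Itgb2 by 2.20 ± 0.46 (limma adjusted p = 0.00113, 3.65e-07 and 0.00252), the last with 0.0559 without sham 72 h array 1d. Ncf1, for an oxidase subunit, stood at 2.13 ± 0.66 at 8 h (limma adjusted p = 0.0509) and rose by 2.25 ± 0.66 at 72 h (0.0249). The 72 h call of Ncf1 was lost without sham 72 h array 1d (0.379), injury 72 h array 3 (0.0839) or injury 72 h array 1 (0.0662). Csf3r, the receptor for granulocyte colony stimulating factor, was at -0.04 ± 0.19 at 8 h (limma adjusted p = 0.937). Monocyte, macrophage and microglia markers rose in 1, 3, 5 and 8 of 10 from 4 to 72 h, led by Lyz2 at 72 h (5.37 ± 0.33, limma adjusted p = 2.68e-09). Mpo, Ltf, Ngp, Elane, Camp, Ncf4, Cxcr2, Clec4e, Fpr2, Ncf1, Il1r2, Csf3r, Ager and Bsg were named after their values had been seen. The part of either cell type in the levels of S100a8, S100a9 and Lcn2 was not tested.

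Of 84 list genes measured in rat, 1 rose at 30 min, 19 rose and 2 fell at 4 h, 8 rose at 8 h, 4 at 24 h, and 13 rose and 1 fell at 72 h, beside 0.0245%, 4.99%, 0.709%, 0.269% and 2.76% of all rows. At 21 d limma called 0 list genes (3 at an unadjusted p under 0.05) and 0% of all rows (50 rows at an unadjusted p under 0.05). These counts shifted with single arrays and with the 4 that stand apart: without those 4 the calls were 0 at 30 min, 14 at 4 h, 15 at 8 h, 11 at 24 h and 22 at 72 h. At 4 h they were 34 without sham array 1 or 2 and 10 without injury array 1 or 2. At 72 h they were 6 without sham array 1, and 7 without sham array 2 or injury array 3. At 8 h they were 1 without sham array 2, 3 without injury array 3, 4 without injury array 1 or 2, and 5 without sham array 1. At 24 h they were 2 without injury array 1 or 3 or sham array 1, and 1 without sham array 2. The single call at 30 min was lost without sham array 3. In the injured rat cortex the sum of 4 red blood cell genes was 37467 to 54613 at 4 and 8 h, against 5508 to 30096 in uninjured arrays. The sum of 8 neuron genes at 72 h was 9396 to 18956 in injury and 29875 to 31146 in sham arrays. Of those 8, Nefm fell by 1.96 on the log2 scale (SE 0.43, limma adjusted p = 0.00959), and limma did not call it without sham 72 h array 1 or 2 (0.125 in both) or injury 72 h array 2 (0.0517) or 3 (0.0953). The part of these cell markers in the results was not tested.

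In rat, 6 of 14 inducers and regulators rose at 4 h and limma called 0 at the other times, where 4, 5, 1, 2 and 0 had an unadjusted p under 0.05 at 30 min, 8 h, 24 h, 72 h and 21 d. Il1b, the cytokine interleukin 1 beta, rose by 2.78 ± 0.45 and Cebpb, a C/EBP factor, by 2.05 ± 0.44 (limma adjusted p = 0.000547 and 0.00986). Both calls were lost when only the 4 h groups entered the fit (limma adjusted p = 0.352 and 0.382), and that of Cebpb also without injury 4 h array 2 (0.113). Of 9 recruitment genes, 5 rose at 4 h, with Ccl3 at 5.69 ± 0.56 (limma adjusted p = 5.74e-08), and 3 at 8 h, with Ccl2 at 4.62 ± 0.76 (0.000576, and 0.0593 without sham 8 h array 2). Of 5 measured receptors and adaptors of S100A8 and S100A9, limma called 0 at any time, with 1 at an unadjusted p under 0.05 at each of 4, 24 and 72 h and 0 at the other times.

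The iron list in rat was led by Hmox1, called from 4 to 72 h, at 1.91 ± 0.40, 2.42 ± 0.47, 2.22 ± 0.47 and 3.34 ± 0.47 (limma adjusted p = 0.00672, 0.00539, 0.0232 and 4.33e-05). The 72 h call of Hmox1 held in every alternative run. The 4 h call was lost without injury 4 h array 1 (0.0566) or 2 (0.116), the 8 h call without sham 8 h array 2 (0.143), and the 24 h call without injury 24 h array 1 (0.134) or 3 (0.141) or sham 24 h array 1 (0.412) or 2 (0.281). Timp1, a metalloproteinase inhibitor of the astrocyte list, rose by 2.53 ± 0.38 at 24 h (limma adjusted p = 0.000136). Of 5 other S100 genes, S100a4 rose by 3.24 ± 0.60 and S100a10 by 2.08 ± 0.44 at 72 h (limma adjusted p = 0.00163 and 0.00740). Both were lost without sham 72 h array 1 (0.0690 and 0.125), and S100a10 also without sham 72 h array 2 (0.0956) or injury 72 h array 3 (0.0771). S100g and S100a1 fell by 2.29 and 1.28 on the log2 scale at 4 h, and neither call held without the 4 arrays that stand apart (limma adjusted p = 0.524 and 0.622).

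The neutrophil list in rat had 9 of 30 genes on the array and 6 past the filter. From 30 min to 24 h limma called 0, with 0, 1, 4 and 2 at an unadjusted p under 0.05. The 4 at 8 h were Cxcr2, the receptor for neutrophil chemokines (2.03 ± 0.76), Cyba (1.70 ± 0.52), Il1r2 (1.66 ± 0.51) and Alox5ap (1.51 ± 0.59), named after their values had been seen. At 72 h Cyba rose by 3.46 ± 0.52 and Alox5ap, for the leukotriene pathway, by 2.37 ± 0.59 (limma adjusted p = 0.000102 and 0.0249). The Alox5ap call was lost without sham 72 h array 1 (0.187) or 2 (0.211) or injury 72 h array 3 (0.187). In 6 of the 9 genes on the array the highest injury reading was above the highest uninjured one. There were 20 injury, 16 sham and 3 naive arrays. The share over all probe sets was not computed, so nothing is read from this count. The sum of the 9 genes in injury arrays was 984 to 1783 at 30 min, 1160 to 2419 at 4 h and 3094 to 4610 at 8 h. It was 2451 to 3535 at 24 h, 2916 to 7587 at 72 h and 1513 to 1722 at 21 d. In uninjured arrays it was 978 to 3138, where the 4 h shams gave the upper end. The highest sum was at 72 h, but the lowest 72 h sum was below the lowest 8 h sum. Cyba alone read up to 5126 in injury arrays, against at most 347 in uninjured ones. A single gene can thus weigh heavily in these sums. The part of the list in the member values was not tested.

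The genes whose log2 intensities ran most like those of each member over all arrays of a species are given as a description, since injury arrays share the time course. Over 22 mouse arrays Lcn2 was followed most closely by Osmr (r = 0.960), Cebpd (0.957), Cp (0.950), Ccl2 (0.947) and Ccl12 (0.942). S100a8 was followed by Cd14 (r = 0.953), Ccl7 (0.952), S100a9 (0.944), Nfkbiz (0.942) and Cebpb (0.941), and S100a9 by Cd14 (0.972), S100a8 (0.944), Nfkbiz (0.937), Cebpb (0.929) and Gadd45g (0.918). Mouse S100a8 and S100a9 thus had 3 of their 5 nearest genes in common besides each other, and shared none with Lcn2. The flat Lcn2 probe set 161684_r_at had no gene above an r of 0.724 (Cryl1), followed by Rae1 (0.712), Flt3 (0.706), Olfr1509 (0.693) and Casp9 (0.683). Over 39 rat arrays Lcn2 was nearest to Timp1 (r = 0.916), Spp1 (0.905), Hspb1 (0.890), Ccl2 (0.889) and Hmox1 (0.887). Rat S100a8 was nearest to S100a9 (r = 0.882), Timp1 (0.851), Lcn2 (0.818), Ccl2 (0.815) and Pla1a (0.802), and S100a9 to S100a8 (0.882), Ccl2 (0.875), Pla1a (0.845), Lcn2 (0.821) and Fosl1 (0.820).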

How the data were processed

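Cortex RNA from 22 mouse and 39 rat samples was measured on 1-colour oligonucleotide arrays. The values are the linear intensities that the authors deposited for each probe set; their software and settings are not given in the sources used here. Every array had a mean without the extreme 2% on each side of 800.3 to 801.2, so the deposited intensities had been scaled to a common level. No further normalization was applied. Intensities were raised to the pooled 10th percentile of the species (24.1 in mouse, 32.3 in rat), and log2 values of the deposited intensities were taken. Rows above the pooled 40th percentile (194 and 203) in at least 3 arrays were kept, 1 probe set of highest mean per gene, except that every member probe set was kept; all 7 passed. Limma 3.58.1 in R 4.3.3 fitted 1 group-mean model per species (6353 and 4089 rows, trended eBayes), with Benjamini-Hochberg adjustment within each comparison and calls at an adjusted p below 0.05. A lower bound is given where both shams sat at the floor. Within-group relations were tested by permuting arrays inside groups (all 1296 orders in mouse, 100000 draws in rat, two-sided). Python 3.11.15 was used for these and for the motif search. The scripts were tested on simulated data.

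Gene names came from the platform annotation: 10833 mouse and 7006 rat probe sets had 1 symbol, 396 and 308 several, and 1193 and 1426 none; 66 and 59 control probe sets were left out of tests. Sequences came from RefSeq GRCr8, which held S100a9 and Lcn2 promoters. The members and lists were chosen with earlier results of these data known. Genes named by rule were the members, up to 4 called genes per list and species with the smallest adjusted p, list genes that share a value beside a member, and the 5 genes most correlated with each member. Other list genes were named after their values had been seen, as said where they appear. Genes were not always given at the time of their smallest adjusted p. The number of arrays limits the precision. Same-numbered injury and sham rats were checked for pairing: of 15 pairs, 4 had deviations correlated above 0.1 (range -0.407 to 0.355), so no block was used in the main fit. At 30 min the pairs numbered 1, 2 and 4 gave 0.337, 0.257 and 0.355, and pair 3 gave -0.407, so pairing at that time is not excluded. Alternatives covered the floor, the filter, quantile normalization, the mean of probe sets, the groups fitted, the control group, a replicate block and leaving out arrays.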

Additional observations from a re-analysis of the deposited data

Results flagged for a closer look

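Dixon's test for a single far value could be applied to 9 member groups of 4 or 5 arrays, and it marked 2; chance marks about 1 group in 20. For S100a8 in rat injury at 30 min, replicate 2 read 303.5, and its gap to the nearest of the other 4 arrays was 0.8866 of the range. In the same array S100a9 was also the highest of its group, at 371. For S100a9 in rat sham at 30 min, replicate 3 read 200.4 and its gap was 0.8724 of the range over 4 arrays. That array is one of the 4 rat arrays that stand apart from the rest by correlation. The part of array quality in either value was not tested.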

How the results depend on the processing

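Injury minus sham of mouse S100a8, S100a9 and Lcn2 (160564_at) and of the rat genes from 4 to 72 h kept its sign in every alternative run. It turned in some alternatives for small values, farthest for rat S100a8 at 30 min (-0.23 without injury replicate 2), for rat Lcn2 at 30 min and 21 d (-0.28 and -0.56) and rat S100a9 at 21 d (-0.15), these with all uninjured arrays as 1 control group, and for 161684_r_at with the mean of both probe sets. Of 1344 values over 34 member comparisons, 1289 moved by less than 1 SD between replicates and 55 by more, most of them with all uninjured arrays as 1 control group (15) or with 1 array left out (16). Counts of separated members held except in rat at 21 d, where a floor at the 25th percentile gave 0, and at 72 h, where leaving out 1 array gave 1 to 2. Counts of list genes called moved more. With all uninjured arrays as control they were 32 in mouse at 4 h, and in rat 2 at 30 min, 18 at 8 h and 25 at 24 h. With the compared groups alone they were 0 at 30 min, 1 at 4 h and 8 at 72 h in rat. Quantile normalization gave 9 at 24 h in rat. Without the 4 rat arrays that stand apart they were 0 at 30 min, 15 at 8 h, 11 at 24 h and 22 at 72 h. The title number as a replicate block gave 0 at 30 min and 7 at 24 h in rat, although only 4 of 15 same-numbered pairs had deviations correlated above 0.1. Leaving out 1 array at a time gave 8 to 21 at 4 h, 25 to 40 at 8 h and 23 to 39 at 24 h in mouse, and 0 to 1 at 30 min, 10 to 34 at 4 h, 1 to 9 at 8 h, 1 to 6 at 24 h and 6 to 19 at 72 h in rat. The within-group r ran from 0.715 to 0.882 for mouse S100a9 with Lcn2, from 0.555 to 0.796 for rat S100a8 with S100a9, and from 0.279 to 0.583 for rat S100a9 with Lcn2. The cause of these shifts was not tested. Of named list genes, 25 of 39 in mouse and 7 of 28 in rat kept their call in every alternative. Values under the floor have no order, so a decline below it cannot be followed. Groups of 2 shams leave each fold open to a single array.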
